A study of Solanum lycopersicum with 8 samples.

Results

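Gene expression in the red ripe fruit of the tomato accession RJ was compared with that in the red ripe fruit of 3 other accessions, AV, TM and SK. The study measured whole leaf and whole fruit of these accessions of Solanum lycopersicum on 1-colour Agilent microarrays, with 1 array for each accession and tissue, so 4 of its 8 arrays entered the comparison. The submitters describe the accessions as differing in how maturity advances and in the carotenoids of the ripe fruit; AV came from Hyderabad, TM from Kashmir, SK from Chatha and RJ from the Rajouri region of Jammu. No treatment, transgene or age is given, and nothing in the labels tells if the RNA came from 1 plant or from a pool. Of 33750 probes that are not controls, the comparison took the 5099 (15.1%) that every fruit array showed well above background.

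Levels are given as log2 intensity scaled so that 0 is the 75th percentile of an array's bright probes, those well above background on all 8 arrays. A difference is RJ fruit minus the mean of AV, TM and SK fruit on that log2 scale, and the SD given beside it is the spread among those 3 accessions, not replicate error. With 1 array per accession there is no replicate and no test, so every value below describes these 4 arrays and a threshold of 2-fold marks size alone. Probes spotted 3 times on an array had a median SD of 0.07 to 0.08 on the log2 scale, which covers spotting error only. RJ and SK fruit shared 1 slide and AV and TM fruit another, so RJ minus SK is the difference within a slide and is given beside the main results.

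Tomato is a climacteric fruit, in which a burst of ethylene made by ACC synthases and ACC oxidases drives ripening under regulators such as the MADS-box protein RIN and the NAC protein NOR. The ripening fruit builds up lycopene through the fruit phytoene synthase Psy1, loosens its walls with polygalacturonase and expansins, and splits sucrose into hexoses with vacuolar acid invertase.

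The labelled tissue matched its markers. All 10 fruit markers were detected in RJ fruit, and their summed linear level (1 being the array's 75th percentile) was 41.9 in RJ against 81.6 in AV, 37.5 in TM and 32.6 in SK. The 6 leaf markers on the array summed to 0.312 in RJ and between 0.272 and 0.453 in the other fruit, and CAB4, PsbQ, SBPASE and TLRP had no probe well above background in any fruit. Neither of the 2 glandular trichome markers on the array was detected, and dividing-cell markers summed to 0.366 in RJ and 0.328 to 0.448 elsewhere. LEA14, listed as the seed marker, was lowest in RJ at 0.691, against 0.888 to 0.974, but its log2 level reached 1.27 in TM leaf and 1.15 in RJ leaf, above every fruit, so it does not single out seed on these arrays. In whole fruit, fewer cells of a type and less RNA per cell cannot be told apart. TM fruit stood apart in 1 fruit marker, the ripening polygalacturonase PG2, which was not well above background there. The other 9 of the 10 were detected in TM. Of them ADH2, EXP1 and Cel2 were highest in TM, and Psy1, RIN, NOR and FUL1 were lowest there. Because PG2 was dim in TM, counts are also given without TM.

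RJ fruit departed little from the other fruit. At least 2-fold higher in RJ were 32 of the 5099 probes (0.628%), and 44 (0.863%) were at least 2-fold lower. The same contrast gave 362 higher and 194 lower probes for AV, 252 and 348 for TM, and 120 and 151 for SK. RJ had the highest level of the 4 arrays for 679 probes (13.3%) and the lowest for 787 (15.4%), and it lay between other accessions for 3633, or 71.2%, against 34.1% for TM, 39.1% for AV and 55.6% for SK. RJ was at least 2-fold above every other fruit for 4 probes (0.0784%) and at least 2-fold below every other fruit for 2 (0.0392%). The median difference was -0.02 and the middle 80% of probes lay between -0.42 and 0.42.

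**Figure D1:**
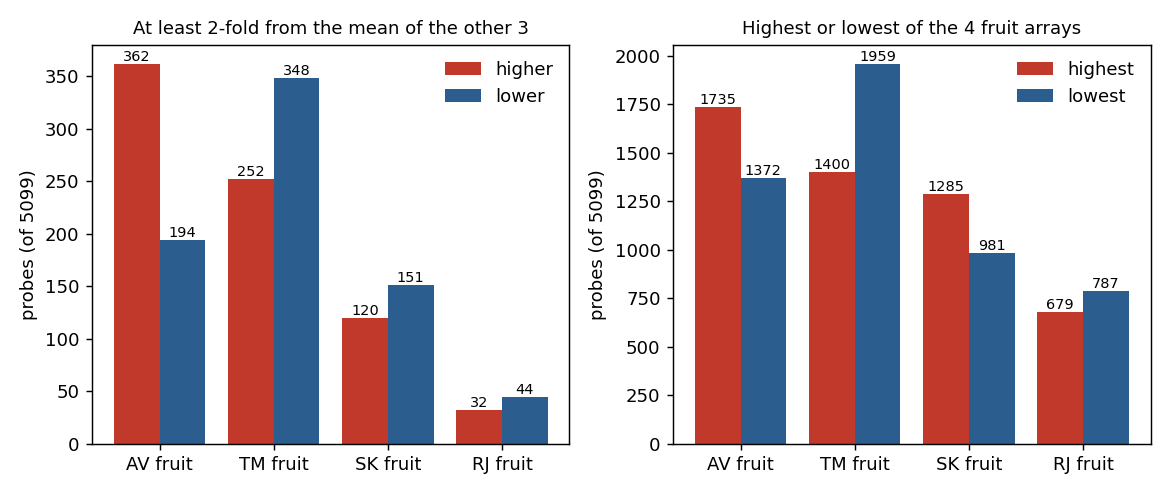
Number of the 5099 probes for which each fruit array differed at least 2-fold from the mean of the other 3 (left) and for which it was the highest or the lowest of the 4 arrays (right). RJ has the shortest bars in both panels, with 32 higher and 44 lower probes.

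These counts rested on which arrays formed the mean. Without TM fruit, 155 probes were at least 2-fold higher in RJ and 126 lower, with 93 above both remaining fruit and 47 below both. Leaving out AV fruit gave 44 higher and 33 lower, with 10 above and 5 below both others, and leaving out SK fruit gave 31 and 76, with 5 and 14. Against SK alone, on the shared slide, RJ was at least 2-fold higher for 180 probes and lower for 142. The probes nearest the threshold stood at 1.004 and 0.996 on the higher side and at -1.003 and -0.997 on the lower side, so the count has no natural gap.

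The fruit closest to RJ was TM. Across the 5099 probes, which share arrays and are not independent, Pearson's r of RJ was 0.95 with TM, 0.94 with SK and 0.90 with AV, against 0.83 between AV and TM. RJ differed at least 2-fold from TM for 244 probes (4.79%), from SK for 322 (6.31%) and from AV for 573 (11.2%). AV and TM differed from each other by that much for 1218 probes (23.9%).

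For those 1218 probes the place of RJ between the 2 extreme fruit was measured, a description chosen after the values were seen. On a scale where 0 is the TM level and 1 the AV level, the median position of RJ was 0.39, with quartiles at 0.20 and 0.57. RJ lay between AV and TM for 1086 of the probes (89.2%), as SK did for 924 (75.9%), and RJ was nearer to TM for 808 (66.3%), with 103 beyond TM and 29 beyond AV. SK lay further toward AV, at a median of 0.64, and was nearer to TM for 437 (35.9%). The position of RJ differed by direction: its median was 0.46 over the 740 probes higher in AV and 0.30 over the 478 higher in TM. Among named genes, 78 of 274 differed 2-fold between AV and TM, and RJ lay between them for 67. Choosing probes or genes by a wide gap between AV and TM itself favours a place between them. The shares lying between AV and TM are therefore descriptions only.

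**Figure D2:**
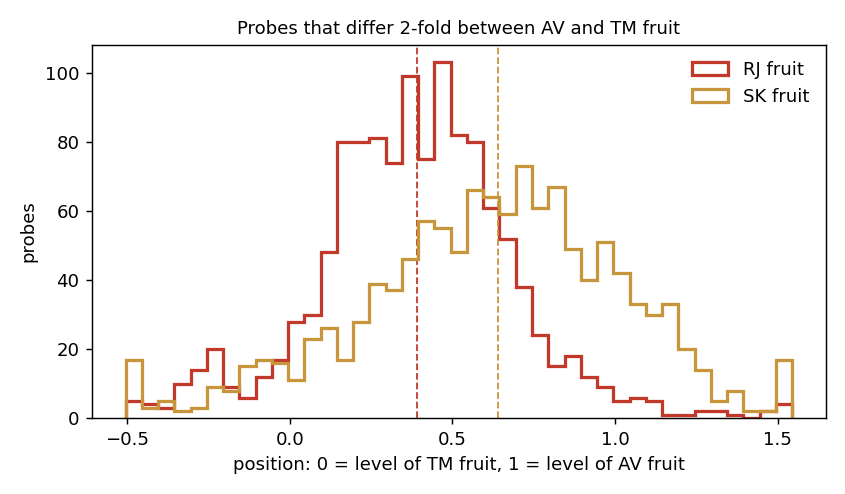
Histogram of the position of RJ and SK fruit between TM fruit (0) and AV fruit (1) for the 1218 probes that differed at least 2-fold between AV and TM; dashed lines are medians and values past the ends are drawn at the ends. RJ centres at 0.39 and SK at 0.64.

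Genes were named through RefSeq accessions, which gave 274 named genes and 65 numbered loci with at least 1 measured probe; 4309 of the 5099 probes have no symbol here. Of the 274 named genes, 33 were higher in RJ than in every other fruit (12.0%) and 45 were lower (16.4%). At least 2-fold higher were 3 (1.09%), ER24, SEND33 and AGO4A, and at least 2-fold lower were 4 (1.46%), DDTFR8, RSI-1, AI and AOS2. The median over the 274 was -0.03. Of the 78 genes outside the range of the other fruit, 5 stood at least 0.5 from the nearest of them on the log2 scale, namely ER24 and ZF2 above and DDTFR8, AI and APX1 below.

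ER24, an ethylene-responsive transcriptional coactivator of the multiprotein bridging factor 1 kind, stood furthest above the other fruit among the named genes. Its level was -1.77 in AV, -1.59 in TM, -2.22 in SK and -0.27 in RJ, a difference of 1.59 (SD of the others 0.33). The other 3 fruit lay close together and RJ was 3.01-fold above their mean and 2.49-fold above the nearest. All 3 measured probes gave nearly the same value, from 1.54 to 1.64, and RJ minus SK within the slide was 1.95. These 3 probes and 1 of the locus LOC543698 are the 4 that were 2-fold above every other fruit. The LOC543698 probe read -2.23 in AV, -2.64 in TM, -1.76 in SK and -0.04 in RJ, a difference of 2.17, larger than that of ER24. Its second probe was well above background in RJ fruit alone and put the level in RJ at least 1.62-fold higher. In leaf the first probe ran from -1.10 in AV to 0.99 in TM, with RJ at 0.47, so RJ did not stand apart there.

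SEND33 read -0.61 in AV, -0.86 in TM, -2.11 in SK and -0.19 in RJ, a difference of 1.01 (SD 0.81) from 1 probe. SK was the low array here, and without SK the difference was 0.55. ZF2 followed at -0.27 in AV, -0.30 in TM, -0.77 in SK and 0.26 in RJ, a difference of 0.70 shared by its 4 probes, from 0.54 to 0.86. The cap-binding translation factor EIF(ISO)4E was nearly equal in the other fruit, at -0.94, -1.11 and -1.09 in AV, TM and SK, and stood at -0.52 in RJ. That difference of 0.53 compares with an SD of 0.09. SPDSY, a spermidine synthase, was 0.58 above the mean and was 1.16-fold above its nearest neighbour TM, and GGP1, an enzyme of ascorbate synthesis, was 0.48 above the mean. The regulators ERF3 (0.48), WRKY40 (0.46) and WRKY81 (0.44), the ubiquitin ligase scaffold CUL4 (0.44), the gibberellin receptor GID1b-1 (0.41) and the calcium-dependent protein kinase cpk1 (0.39) completed the upper group with SRG2 (0.54), the ribosomal protein gene RPL3 (0.48) and LLP (0.43). Within the slide WRKY81 stood at 0.03, GID1b-1 at 0.10 and cpk1 at 0.16. For WRKY40 and RPL3 the nearest other fruit, AV and TM respectively, lay 1.01-fold below RJ.

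AGO4A, an argonaute protein of small-RNA silencing, was 2-fold higher than the mean but not the highest. It read -2.63 in AV, 0.42 in TM, -1.63 in SK and -0.28 in RJ. TM and RJ formed a high pair, and the difference of 1.00 went to 0.33 without AV and to 1.86 without TM.

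That pairing with TM recurred among the higher probes, a pattern noticed in the values. In 20 of the 32, TM and RJ were both at least 2-fold above both AV and SK, and TM was the fruit nearest to RJ in 25. Choosing probes by a low mean of the other fruit favours a low AV and SK, and TM was the closest fruit over all probes. The shares over all probes were not taken, so these 2 counts are descriptions only. The locus LOC778321 had the largest difference, 2.32, with levels of -1.44 in AV, 3.60 in TM, 1.24 in SK and 3.45 in RJ. LOC100750252 read -2.11, 2.27, -1.50 and 1.69 in the same order, a difference of 2.14. Neither was highest in RJ. Of the 32 probes, 13 had RJ above the range of the other fruit, 6 belonged to named genes and 22 had no symbol. Over all 5099 probes RJ was the highest for 13.3%, and 4309 had no symbol. The share in named genes was not taken. Choosing probes by a high RJ favours a place above the range, so nothing particular to the 32 is drawn from these counts. Among the probes without a symbol and above every other fruit, A_96_P013246 (1.73), A_96_P136737 (1.64), A_96_P028141 (1.51) and A_96_P008731 (1.29) were the furthest from the mean.

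AI, the vacuolar acid invertase of ripe fruit, was the low gene with the most probes behind it. Its level was 2.88 in AV, 0.08 in TM, 0.52 in SK and -0.71 in RJ, a difference of -1.87 (SD 1.51), or 3.65-fold lower. AV was far above the rest and RJ was the lowest, 1.73-fold below TM. All 8 probes gave values between -2.07 and -1.64. RJ minus SK was -1.22, and without AV the difference was -1.01. Another 12 of the 44 lower probes, none with a symbol here, followed the AI profile over the 4 fruit arrays within 0.5 log2, a tolerance chosen after the values were seen, and 10 of these come from a single transcript record. AI and its followers thus made up 20 of the 44 (45.5%), and probes are not independent genes.

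DDTFR8 was the other low gene that stood well clear. It read -1.45 in AV, -0.11 in TM, -0.84 in SK and -2.72 in RJ, a difference of -1.91 (SD 0.67) from its 1 probe. RJ was 3.77-fold below the mean and 2.40-fold below AV, the nearest, and RJ minus SK was -1.87. This probe and 1 of AI were the 2 that lay 2-fold below every other fruit. AOS2, an allene oxide synthase of the jasmonate route, read -1.22 in AV, -2.88 in TM, -1.64 in SK and -2.97 in RJ. The difference of -1.05 reached -1.54 without TM and -0.71 without AV, and TM and RJ were nearly equal.

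The ascorbate peroxidase APX1 read 0.43 in AV, -0.26 in TM, 0.40 in SK and -0.81 in RJ, and at 1.99-fold lower it just missed the threshold. RJ was below all others, by 1.46-fold from TM, and RJ minus SK was -1.20. NCED1, which makes the first committed step from carotenoids to abscisic acid, read -0.71 in AV, -2.07 in TM, -1.71 in SK and -2.45 in RJ, a difference of -0.95. Its 3 probes gave the same sign, and 2 more NCED1 probes were well above background in every fruit but RJ. E8, a ripening and ethylene-induced oxygenase-like gene, read -0.39, -1.27, -1.36 and -1.76 in AV, TM, SK and RJ, a difference of -0.75. The others of the lower group were VP1 (-0.88), the small heat shock gene vis1 (-0.68), the plastid co-chaperonin CPN21 (-0.68), the lipocalin TIL (-0.66), APX2 (-0.65), the ACC synthase ACS3 (-0.62), the fruit expansin EXP1 (-0.59), the malic enzyme ME2 (-0.56) and TPS1 (-0.56). For vis1 and ME2, RJ lay within 1.02-fold of the next fruit. TIL read 1.68 in AV, 0.26 in TM, 0.19 in SK and 0.06 in RJ, so AV was the array apart. Without AV the differences of TIL, vis1 and ME2 were each -0.17, and ACS3 was at -0.07 when its dim probes were kept.

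RSI-1, a gene first described as auxin-induced in roots, was 2-fold lower without being lowest. It read 1.47 in AV, -3.06 in TM, 0.84 in SK and -2.15 in RJ, so RJ and TM were both far below AV and SK. Its difference of -1.90 became -3.31 without TM and -1.04 without AV. Across the 44 lower probes AV was the highest fruit for 36, against 34.0% of all 5099 probes, and RJ was at least 2-fold below AV for every one of the 44. Choosing probes by a high mean of the other fruit favours a high AV, so these 2 counts are descriptions only. RJ lay below the range of the other fruit for 36, against 15.4% of all 5099 probes. TM and RJ were both at least 2-fold below AV and SK for 9, a count whose share over all probes was not taken. Choosing probes by a low RJ favours a place below the range, so these counts too are descriptions only.

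**Figure D3:**
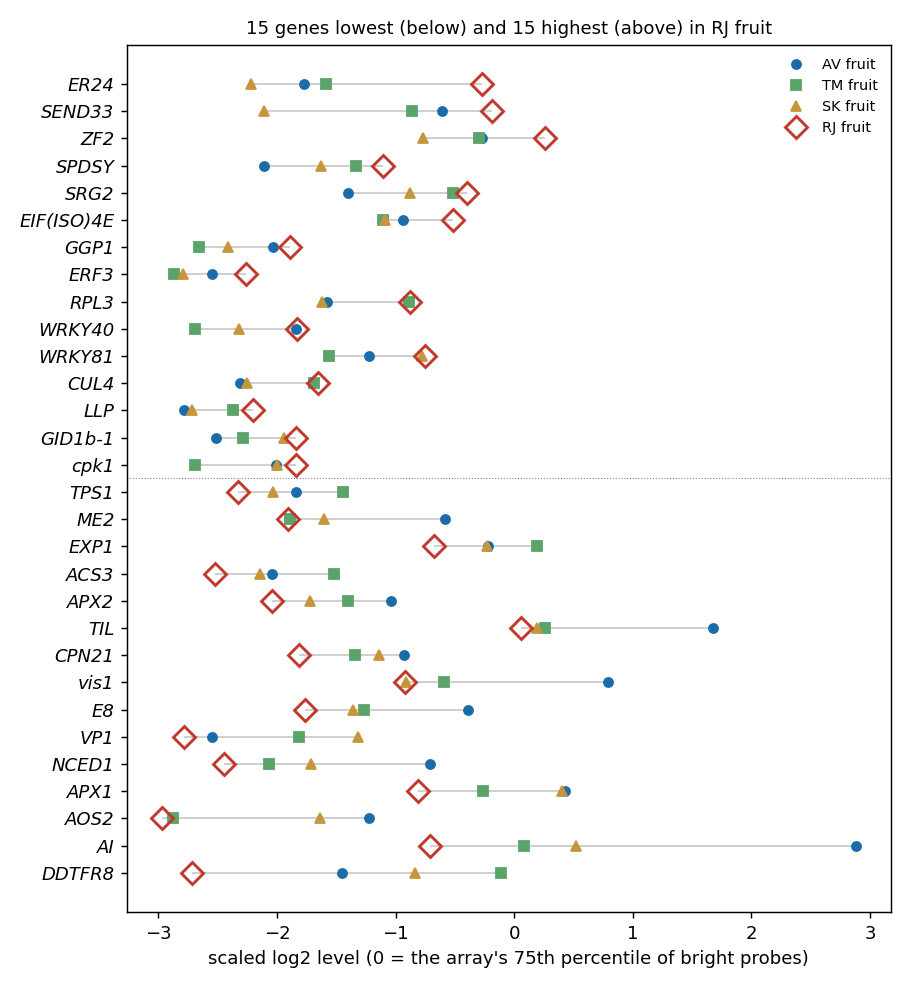
Scaled log2 level of the 15 named genes highest above and the 15 lowest below the other fruit by their difference from the mean, each joined from its lowest to its highest fruit array. RJ, the open red diamond, is separated from the next fruit most clearly for ER24 and DDTFR8, and for many genes it sits beside the next fruit.

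Counts of list members outside the range of the other fruit are to be read beside the shares over all 274 named genes, 12.0% above and 16.4% below, and nothing particular to a list is drawn from them. Among ethylene synthesis genes, 8 of 12 on the array were measured, none above and 2, E8 and ACS3, below every other fruit, with a median of -0.14. That median was 0.60 without AV and -0.39 without TM. ACS4, an ACC synthase of ripening, read -0.75 in AV, -2.26 in TM, -2.47 in SK and -1.10 in RJ, and the difference of 0.73 placed RJ second to AV. SAM1, an S-adenosylmethionine synthetase, read -0.41, 0.85, -0.64 and 0.65 in AV, TM, SK and RJ, a difference of 0.72, with RJ and TM together on the high side. ACO1, the ACC oxidase of ripening fruit, spanned 2.25 in AV to -2.52 in TM, with SK at 0.99 and RJ at 0.11, so its difference of -0.14 sat inside an SD of 2.48.

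The 12 measured of 22 perception and response genes had 2 above and 2 below every other fruit and a median of 0.03, or -0.05 without AV. ERF3 and the receptor locus LOC544279, whose synonym is ETR3, were above, the latter at -1.38, -1.42, -1.71 and -1.28 in AV, TM, SK and RJ. The kinase gene TCTR2 (-0.24) and EIL4 (-0.20) were below. All 12 differences lay between -0.24 and 0.48, so none reached 2-fold.

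The ripening regulators, 8 of 15 measured, centred at 0.01 (0.40 without AV and -0.42 without TM), with AP2a (0.19) the one above every other fruit and none below. RIN read 1.32 in AV, -1.37 in TM, -0.22 in SK and 0.15 in RJ, a difference of 0.24, and NOR read 0.48, -2.03, -1.32 and -1.26, a difference of -0.30. Both differences turned with the arrays in the mean: RIN was at -0.40 without TM, and NOR was at 0.42 without AV and 0.06 within the slide. FUL1, a further MADS-box regulator, read 1.55 in AV, 0.04 in TM and 1.66 in SK, with RJ 0.02 from their mean. RJ thus lay between the other fruit for all 3, with AV above TM in each. The homeobox gene VAHOX1 (0.30) was also within the range.

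Of the carotenoid genes 9 of 20 were measured, with a median of -0.03 (-0.22 without TM) and 3 below every other fruit. Psy1 read 2.17 in AV, 0.96 in TM, 1.38 in SK and 1.55 in RJ, a difference of 0.05 over 13 probes. ZDS, the zeta-carotene desaturase, read -0.98, -1.28, -0.95 and -1.53 in AV, TM, SK and RJ, a difference of -0.46 with an SD of 0.18. ChrC, a carotenoid-storage protein of the chromoplast, read -1.64, -1.83, -1.14 and -2.09, a difference of -0.55. NCED1 was the third. The other 6 measured genes, Psy1 among them, had RJ within the range. They include the other desaturase PDS, at -1.50, -1.88, -2.20 and -2.12 in AV, TM, SK and RJ, the cleavage enzyme gene CCD1B (0.05), and HDR (-0.03), DXS (0.21) and GGPS2 (0.32), which act before phytoene.

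Cell wall genes had 9 of 33 measured, a median of -0.30 (-0.52 without AV, -0.45 without TM, -0.11 without SK and -0.06 within the slide), 1 above and 2 below every other fruit. EXP1 read -0.22 in AV, 0.19 in TM, -0.23 in SK and -0.68 in RJ, with RJ 1.37-fold below its nearest neighbour. TBG4, a beta-galactosidase, differed by -0.54, and the endoglucanase Cel2 by -0.73 with RJ between SK and AV. The xyloglucan enzyme tXET-B2 (0.21) was above by a margin of 0.02 to SK. In the sugar and acid list, 9 of 24 were measured, none above and 2 below, AI and the fructokinase FRK2 (-0.36), and the median was -0.06, or -0.40 without TM. Aroma genes (5 of 11) had a median of -0.12, which was 0.14 without AV and -0.39 without TM. The alcohol dehydrogenase ADH2 was below every other fruit at -0.31, but RJ (3.24) lay beside SK (3.26).

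Redox and detoxification genes had 11 of 17 measured, 4 below and 1 above every other fruit, and a median of -0.18. Those 4 and 1 of 11 stand beside the 16.4% below and 12.0% above among all 274 named genes. Below were APX1, APX2, the glutathione S-transferase gst (-0.47) and the glutathione peroxidase GPXle-1 (-0.31). Above was GGP1. For gst, RJ (-1.17) lay beside TM (-1.15). The catalase cat1 (-0.18) and DHAR1 (-0.09) were within the range. Heat shock genes (6 of 8) had a median of -0.20 (-0.11 without AV and -0.03 within the slide), with vis1 and HSP70 (-0.28) below, and dehydration and abscisic acid genes (4 of 8) a median of -0.27, with LEA14 and NCED1 below. LEA14 read -0.04, -0.17, -0.09 and -0.53 in AV, TM, SK and RJ, a difference of -0.43 with an SD of 0.07.

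Among nitrogen and polyamine genes, 5 of 11 were measured, with a median of 0.12. Above every other fruit were 2, SPDSY and the arginine decarboxylase ADC (0.38). ADC read -0.35 in AV, 0.57 in SK and 0.67 in both TM and RJ, and without AV its difference was 0.05. Housekeeping genes (7 of 8) had a median of 0.06, with the elongation factor locus LOC544055 (0.32) and RPL8 (0.32) above. RPL8 read -1.20, -1.05, -1.16 and -0.82 in AV, TM, SK and RJ, against an SD of 0.07 among the others. The remaining lists were small or near 0: membrane transport (6 of 14, median 0.09), auxin, gibberellin and cytokinin (7 of 16, -0.08), cell cycle (4 of 13, 0.02), defence (3 of 19, 0.00), wound and jasmonate (3 of 11, 0.13), photosynthesis (3 of 10, -0.27) and seed and trichome (3 of 9, -0.43). The 3 measured genes of the seed and trichome list were LEA14, Cel2 and LHA1, so that median does not speak for seed or trichome. Cel2 also served as a fruit marker, and LEA14 did not single out seed. The 10 photosynthesis genes count DFR, a member of the flavonoid list, through the synonym FNR. In the flavonoid list 1 of 9 was measured, hqt at -0.18, and in the glycoalkaloid and sterol list 2 of 7, CYP85A1 at -0.09 and FPPS1 at -0.64. With 1 other fruit left out, whichever it was, 10 of the 19 list medians kept their sign and 9 did not, among the latter wound and jasmonate, at -0.30 without SK, and membrane transport, at -0.13 without SK.

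**Figure D4:**
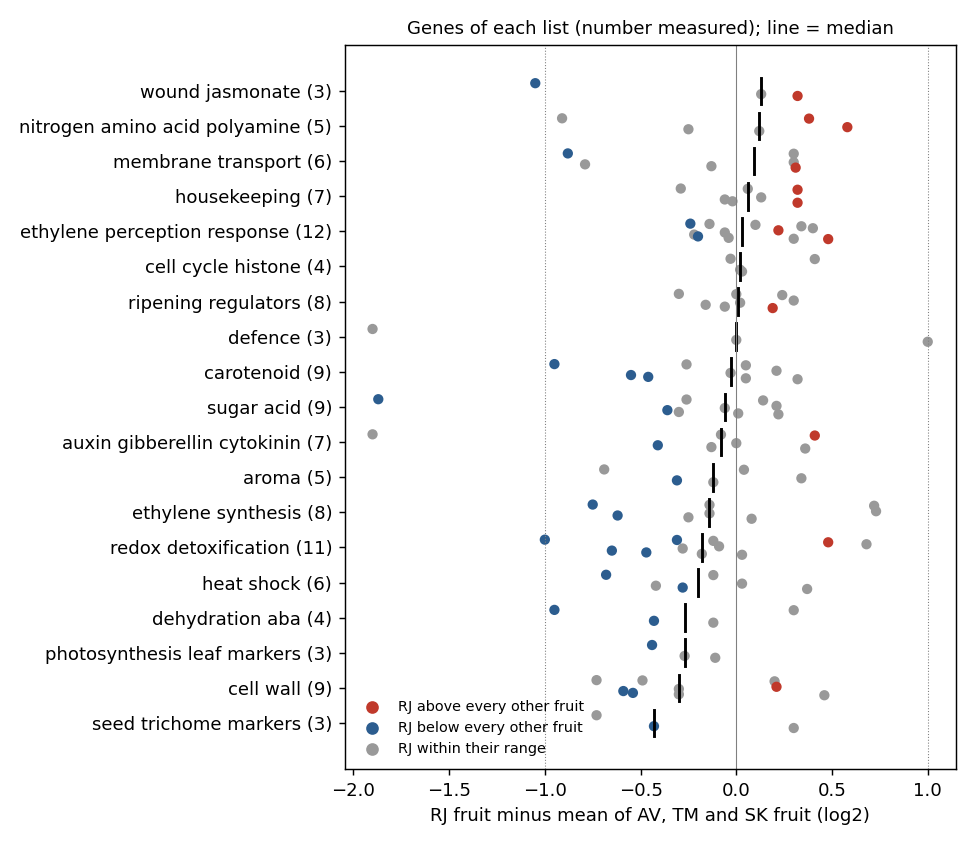
Difference of RJ fruit from the mean of the other fruit for every measured gene of the 19 lists with at least 3 such genes; black lines are list medians, dotted lines mark 2-fold, and a gene in 2 lists is drawn in both. Most points lie well inside the dotted lines and most lists centre near 0.

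Probes that were not well above background in some fruit fall outside the 5099, so they were looked at separately, after their values were seen. A dim probe does not show that its transcript is absent from that fruit. In RJ fruit alone 81 probes were well above background, against 466 in AV alone, 485 in TM alone and 184 in SK alone. TM and RJ together, without the other fruit, accounted for 390 probes, SK and RJ for 48 and AV and RJ for 72. In every fruit but RJ 88 probes were bright, and in every fruit but TM 292. A bound of 2-fold or more, counting a dim probe at the lowest bright signal of its array, was reached by 4 of 80 probes bright in RJ alone and 9 of 86 bright in all but RJ that had a value on every fruit array.

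Polygalacturonase PG2, the main pectin-cutting enzyme of ripe tomato, read 4.18 in AV, 0.90 in SK and 2.36 in RJ and was not well above background at -5.88 in TM. Its level in RJ was at least 66.4-fold above TM over 6 probes and lay between SK and AV. The pectinesterase gene PE1 read -0.60, -5.82, -1.90 and -2.36 in AV, TM, SK and RJ, and the mannanase gene Man4 read 0.83, -5.84, -3.96 and -5.13. TM had no bright probe for any of these 3 genes. Of the 5 Man4 probes, 1 was bright in SK and 1 in RJ. The lipoxygenase loxC, which feeds fruit aroma, read -1.98 in AV, -2.18 in SK, -3.91 in RJ and -5.67 in TM, with RJ below SK, unlike PG2. In RJ 1 of its 3 probes was bright. Levels of the genes left out by the filter are means over all their probes, dim ones included. Where few probes were bright, the mean is not a measured size.

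Defence genes divided. The chitinase CHI3 read 0.51 in AV, -3.60 in SK, -5.26 in RJ and -5.34 in TM, with no bright probe in RJ or TM, and CHI17 behaved alike at -1.87, -2.88, -4.99 and -5.62 in that order. The pathogenesis-related gene PR-P2 read 0.67 in AV, -0.45 in SK, -3.28 in RJ and -5.86 in TM, with 1 of its 3 probes bright in RJ. CHI9, another chitinase, was as high in RJ (-0.93) as in AV (-1.03), with SK at -2.25 and TM at -4.78. GluB, a beta-1,3-glucanase, was highest in RJ at -2.88, against -4.32 in AV, -5.40 in SK and -5.80 in TM, and 10 of its 13 probes were bright in RJ, 2 in AV and none in TM or SK. For the 8 GluB probes bright in RJ alone the bounds ran from 1.24 to 2.75-fold. In leaf the order was different, with AV highest at -2.14 and RJ at -3.94.

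The flavonoid gene CHS1, a chalcone synthase, had no bright probe in RJ (-4.70) or TM (-5.80) but had some in AV (-2.52) and SK (-3.37), while CHS2 was bright in RJ as well as in AV (-1.27) and SK (-1.15), with TM at -4.81. The gene annotated as gad2 went the other way and was bright in TM and RJ, both at -3.17, and not in AV (-5.62) or SK (-5.30). In TM and in RJ 5 of its 10 probes were bright.

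**Figure D5:**
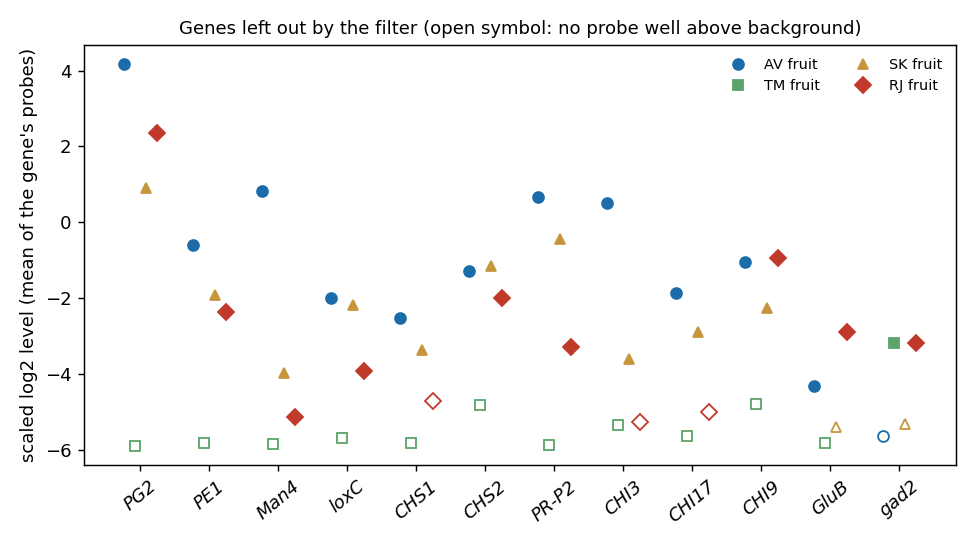
Scaled log2 level, as the mean of all probes of a gene, for 12 genes outside the comparison because at least 1 fruit lacked a bright probe; open symbols mark a fruit in which the gene was not well above background. TM is open for all but gad2, and RJ is highest for GluB and CHI9.

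The largest bounds of all came from 2 probes without a symbol. A_96_P016626 read 2.47 in RJ and between -5.87 and -5.60 in the other fruit, at least 66.6-fold higher, and A_96_P101149 read 2.21 against the same range, at least 55.6-fold higher. Both were at background on every leaf array, RJ leaf included. They come from different transcript records and sit in column 1 of the array at rows 275 and 277, 1 spot apart; their raw signals in RJ fruit were 25134 and 21775, and the spot between them read 59.0 there. The part of this position in their signal was not tested. On the low side, A_96_P224324 read 1.25 in AV, -2.46 in TM, 1.25 in SK and -5.54 in RJ, at least 11.9-fold lower in RJ, and A_96_P098139 read 0.44, -3.30, 0.25 and -5.62, at least 6.41-fold lower. Those 2 lie far apart on the array, at rows 456 and 129.

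The same contrast was taken in leaf for RJ against the other accessions. Over the 3079 probes bright on all 8 arrays, 27 (0.877%) were past 2-fold in fruit and 187 (6.07%) in leaf, and Pearson's r between both differences was -0.24 over probes that share arrays and are not independent. Of the 27, 10 had the same sign in leaf and 4 were past 2-fold in both. The share with the same sign over all 3079 probes was not taken, so nothing particular to the 27 is drawn from these counts. CPN21 was below the other accessions in fruit (-0.68) and in leaf (-1.08), and ERF3 was above them in fruit (0.48) and in leaf (0.59). Genes of opposite sign included NCED1, at -0.95 in fruit and 1.19 in leaf, and LEA14, at -0.43 and 1.66. For NCED1 and LEA14, RJ leaf lay within the range of the other leaves. No rule chose these genes as a set, so they are examples only.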

How the data were processed

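RNA of whole leaf and whole red ripe fruit was labelled with Cy3 and hybridised to 1-colour arrays, per the labels' protocols. Per the file headers, Agilent Feature Extraction (version 10.7.3.1) wrote the deposited intensity of each spot; its processed signal, used here, is background-corrected, and 33750 probes of 45020 spots are not controls. A deposited table of log2 values for the same arrays was used as an alternative; once each array was centred, 100% of its fruit values for the 5099 probes lay within 0.02 log2 of the scanner values. Its 247 further columns hold no values.

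Processed signals of repeated spots were averaged after spots with outlier marks (30 to 74 an array) were dropped, taken to log2 and scaled to the 75th percentile over 3079 probes marked well above background on all 8 arrays. No spot was saturated. Python 3.11.15, pandas 2.3.3, numpy 2.4.6, R 4.3.3 and limma 3.58.1 (normexp only) were used, and the counting of 2-fold probes was tested on simulated data. Of 3132 probes with a RefSeq accession, 2936 matched 1214 genes of the RefSeq gene table (assembly SLM_r2.1, used for names only); a gene's level is the mean of its measured probes. Precision is limited by having 1 array per group.

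The comparison, the 21 gene lists and the rules were chosen with earlier results of these data known. Named genes are the 15 highest and 15 lowest outside the range of the other fruit, and 5 probes without a gene name on each side. From each list came the members past 2-fold or, where there were none, up to 4 with the largest difference. Every measured ethylene, ripening regulator and carotenoid gene was added. Others named in the text were chosen after their values were seen. Alternatives were normexp background, 4 scalings, 3 filters, a 3-fold threshold, the deposited table, the brightest probe of a gene, each other fruit left out, and SK alone (same slide). Sequences of probes and genes were not used here.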

Additional observations from a re-analysis of the deposited data

Results flagged for a closer look

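SEND33, RPL3 and CUL4 stood above the other accessions in RJ fruit and below them in RJ leaf. SEND33 differed by 1.01 in fruit and -0.79 in leaf, RPL3 by 0.48 and -1.05, and CUL4 by 0.44 and -0.32, all on the log2 scale. In each case RJ lay outside the range of the other 3 accessions in both tissues, but for RPL3 in fruit TM lay beside RJ. Pearson's r between the fruit and leaf differences was -0.24 over 3079 probes. Nothing particular to these 3 genes is therefore drawn from their change of sign. With 1 array per accession and tissue the difference between tissues was not tested.

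The scanner files also mark 8503 tomato probes as controls, which the comparison leaves out. Of these, 503 exceeded background clearly on each fruit array, with 3 (0.596%) at least 2-fold higher in RJ, 10 (1.99%) lower, 66 highest in RJ and 104 lowest.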

How the results depend on the processing

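The main counts were 32 probes at least 2-fold higher in RJ, 44 lower, 4 above every other fruit and 2 below. With normexp background and with spike-in scaling, 1 probe was below every other fruit. Requiring probes bright on all 8 arrays left 13, 14, 1 and 0 in that order. Keeping probes bright in RJ or in all 3 others gave 282 higher, 56 lower, 27 above every and 5 below every other fruit, and AV was not bright for 206 of the 282; this filter admits a probe bright in RJ alone but none for being dim there unless all others are bright. No filter gave 358, 264, 37 and 7. At 3-fold, 9 were higher and 25 lower. Leaving out 1 other fruit gave 31 to 155 higher, 33 to 126 lower, 5 to 93 above and 5 to 47 below all others, with the highest of each without TM. Within the slide, against SK alone, 180 were higher and 142 lower, and these are also the counts above and below every other fruit there. The median of all probes lay between -0.08 and 0.06 under every setting. Of 99 genes named by the rule, 57 kept their sign under every setting run, among them all 7 past 2-fold. Those 7 were chosen by size and every setting reuses the same RJ array, which favours a kept sign. At their smallest, AGO4A stood at 0.33, SEND33 at 0.55 and AOS2 at -0.71. The others, ER24, DDTFR8, RSI-1 and AI, stayed past 2-fold. No paired analysis was possible because each accession and tissue has 1 array. What depth limits here is signal over background: a gene dim in 1 fruit gives only a bound.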

Other observations

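For probes chosen by their difference between AV and TM fruit, these 2 accessions mostly differed in the opposite direction in leaf. Of 701 probes bright on all 8 arrays and at least 2-fold different between AV and TM fruit, 540 (77.0%) had the opposite sign in leaf and 161 the same. The share with the opposite sign over all probes bright on all 8 arrays was not taken. The mean of all 3 other fruit does not change if AV and TM are exchanged. Values that tell AV fruit from TM fruit do, including those with 1 of them left out, the likeness of RJ to TM and its position between both. Counts of probes that differ between AV and TM, or that have RJ between them, do not. An exchange in leaf alone would change no fruit value. Whether the labels of AV and TM were exchanged in 1 tissue, or the fruit were picked at different ripeness, was not tested.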
